A study of Rattus norvegicus with 24 samples.

Results

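The genes described here are 9 genes of natural killer (NK) cells and cytotoxic T cells that could be read in rat lung RNA: the receptors Ly49i5, Klrd1, Klrk1 and Ncr1, the pore-forming protein Prf1, the granule proteases Gzma, Gzmb and Gzmk, and the granule membrane protein Nkg7. They were chosen by name, on the dose differences of their levels in an earlier analysis of these arrays, and found on the array by the RefSeq accession of each probe, which gave 11 of the 30367 probes. Gzmb and Klrk1 had 2 probes each, and the brighter one stood for the gene. All 9 passed the filter on dim probes and were among 21261 genes or unnamed probes tested. Ly49i5 entered the list for a large fall at 1000 ppm, so the dose differences of the 9 genes are given as a description, and counts of those past a threshold are read as no test. The differences between males and females were not used in the choice and were tested.

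Lung RNA came from 24 Fischer-344 rats, 7 to 8 weeks old, that breathed either filtered clean air (control group) or hexanal, a volatile aldehyde, at 600, 1000 or 1500 ppm. Each group had 6 rats, 3 males and 3 females, and the treatment protocol in the labels gives exposure for 4 h per day on 5 days per week over 5 weeks, with the same dose numbers in mg per cubic meter. Each RNA was labelled with Cy3 and hybridized alone to a one-colour Agilent rat array. A level is the log2 of the processed signal of a probe minus the log2 of the 75th percentile of its own array, so that 0 is a bright probe and each step of 1 is a doubling, and levels of different probes are not compared. The lung markers Sftpc, Scgb1a1 and the other 10 measured genes of the lung epithelial and endothelial list had a mean level between 4.32 and 4.48 in the control rats.

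NK cells are lymphocytes that kill infected or transformed cells without prior priming, and the lung vasculature is known to hold many of them. They share their killing machinery with cytotoxic T cells: perforin, made from Prf1, opens pores in the membrane of the target, and the granzymes enter through them and start cell death. Whether an NK cell kills is set by a balance of activating and inhibitory receptors. In rodents many of these belong to the Ly49 family, which binds MHC class I molecules, while Klrd1 (CD94) pairs with NKG2 proteins, Klrk1 (NKG2D) binds ligands shown by stressed cells, and Ncr1 (NKp46) marks NK cells. In whole lung RNA, fewer cells of a type and less RNA per cell cannot be told apart.

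The promoters of 7 of the 9 genes were read from RefSeq (rat assembly GRCr8) and not those of Klrd1 and Ncr1. The 250 bases before the gene start of Prf1, Gzmb and Nkg7 are shown because these genes varied together from rat to rat, and those of Ly49i5 because it varied little with them. Capitals mark every match, on either strand, to 6 motifs: RUNX (TGTGGT), ETS (AGGAAG), T-box (AGGTGTGA), AP-1 (TGAGTCA), CRE (TGACGTCA) and STAT (TTCNNNGAA). The windows lie at chr20:29788790-29789039 on the plus strand (Prf1), chr15:34462470-34462719 on the minus strand (Gzmb), chr1:102981247-102981496 on the plus strand (Nkg7) and chr4:165694653-165694902 on the minus strand (Ly49i5).
Prf1: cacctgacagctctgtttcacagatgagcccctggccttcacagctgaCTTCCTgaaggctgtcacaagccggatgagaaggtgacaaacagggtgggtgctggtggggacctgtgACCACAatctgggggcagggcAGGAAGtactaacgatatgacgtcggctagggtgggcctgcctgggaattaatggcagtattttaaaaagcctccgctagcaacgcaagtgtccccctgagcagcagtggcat
Gzmb: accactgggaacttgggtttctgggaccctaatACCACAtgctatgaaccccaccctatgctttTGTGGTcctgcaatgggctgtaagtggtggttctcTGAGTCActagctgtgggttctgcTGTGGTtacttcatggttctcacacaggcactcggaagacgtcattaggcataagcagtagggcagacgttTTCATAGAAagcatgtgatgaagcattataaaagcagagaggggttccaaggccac
Nkg7: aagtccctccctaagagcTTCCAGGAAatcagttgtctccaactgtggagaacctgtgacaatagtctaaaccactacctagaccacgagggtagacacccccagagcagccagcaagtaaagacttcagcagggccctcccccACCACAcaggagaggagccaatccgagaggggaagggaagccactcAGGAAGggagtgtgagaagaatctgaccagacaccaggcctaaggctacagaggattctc
Ly49i5: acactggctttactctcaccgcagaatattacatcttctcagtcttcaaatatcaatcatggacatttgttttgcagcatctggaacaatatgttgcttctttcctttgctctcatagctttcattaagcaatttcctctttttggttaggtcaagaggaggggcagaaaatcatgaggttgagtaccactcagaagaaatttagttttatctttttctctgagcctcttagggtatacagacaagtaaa
The RUNX letters were found in 6 of the 7 windows (Nkg7, Gzma, Gzmb, Gzmk, Prf1 and Klrk1) and in 14.5% of 33469 rat promoters of the same length. In Gzmb they occurred 3 times, with first bases 217, 186 and 127 bases before the gene start. The ETS letters were in the windows of Prf1 and Nkg7 (29.5% of all promoters), the STAT letters in those of Nkg7 and Gzmb (7.67%), and the AP-1 letters in that of Gzmb (4.05%). The T-box and CRE letters were in none of the 7 windows (0.959% and 1.59% of all promoters), and the Ly49i5 window held none of the 6 motifs. A match is a run of letters and not a measured binding site, and the 7 windows were not chosen at random.

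Ly49i5 (NM_001009501) codes for an inhibitory member of the Ly49 receptors. In the control group its level was -3.19, -6.76 and -6.39 in the males and -3.59, -3.21 and -4.97 in the females. At 600 ppm it was -6.19, -6.59 and -6.61 in the males and -3.85, -5.97 and -5.80 in the females. The control rats thus fell into high and low values, and 1 female at 600 ppm lay among the 4 high controls. At 1000 ppm the 6 rats lay between -6.54 and -5.83 (median -6.31), and at 1500 ppm between -7.04 and -5.65 (median -6.04). From control to the highest dose the means were -4.69 ± 1.60, -5.83 ± 1.02, -6.27 ± 0.27 and -6.15 ± 0.47 (SD, n = 6). The groups overlapped at every dose, since 2 control males were as low as the exposed rats, while 3 controls exceeded every rat at 600 ppm, 4 exceeded every rat at 1000 ppm and 4 every rat at 1500 ppm.

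The Ly49i5 mean was 2.22-fold lower than control at 600 ppm, 2.99-fold lower at 1000 ppm and 2.75-fold lower at 1500 ppm. On the log2 scale the differences were -1.15 (95% interval -2.28 to -0.02), -1.58 (-2.71 to -0.45) and -1.46 (-2.59 to -0.33). The probe was dim. It was well above background on 5 of 6 control arrays, 4 of 6 at 600 ppm, 6 of 6 at 1000 ppm and 4 of 6 at 1500 ppm, and its processed signal ran from 21.5 in a control male to 335 in another control male. Within the arrays where it was well above background, the differences were -1.18, -1.99 and -1.65, a reading added after the data were seen. The sequence of the probe was not used here, so its match to other Ly49 genes was not checked.

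The high values of Ly49i5 lay on the slides that carried the control arrays. The 24 arrays were on 6 slides of 4, each with rats of 1 sex, and the 2 slides with controls also held 1 rat of the 600 ppm group each, while no slide held controls together with 1000 or 1500 ppm rats. The 5 highest of the 24 values, -4.97 and above, were all among the 8 arrays of these 2 slides. The 16 arrays of the other slides lay between -7.04 and -5.65. Within the male slide with controls, the 600 ppm rat was 0.74 below the mean of the 3 controls on the log2 scale (-6.19 against -5.45), and within the female slide it was 0.07 above it (-3.85 against -3.93). Between 1000 and 600 ppm and between 1500 and 1000 ppm the differences within a slide were between -0.14 and 0.22. With slide as a fixed term the differences from control came to -0.33, -0.33 and -0.14, and with slide as a random block to -0.89, -1.23 and -1.18. The 1000 and 1500 ppm groups shared no slide with the controls, and the fixed term links them to the controls through slides shared with the neighbouring dose. All of the fixed-term differences therefore rest on the 1 rat of the 600 ppm group on each of the 2 slides with controls.

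**Figure D1:**
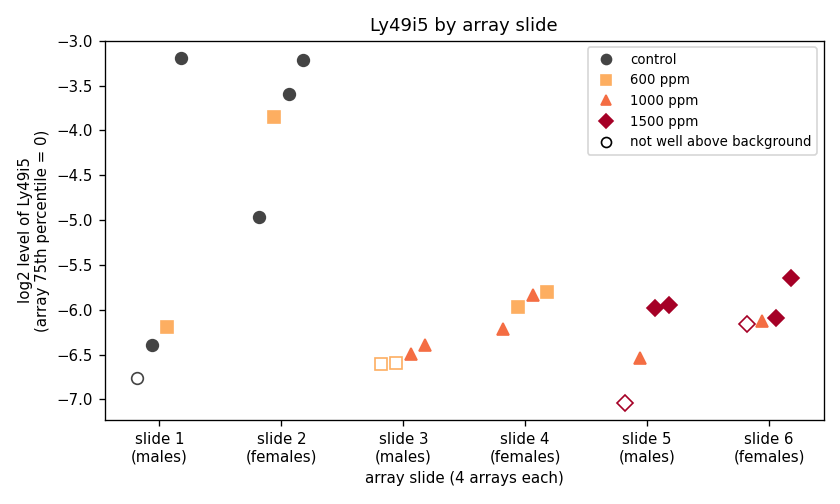
Level of Ly49i5 (log2, array 75th percentile set to 0) on each of the 24 arrays, arranged by slide, with marker shape and colour giving the dose group and open markers showing arrays where the probe was not well above background. The values above -5 are all on slides 1 and 2, and the arrays of slides 3 to 6 lie between -7.04 and -5.65 at every dose.

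The other Ly49 genes differed less from control. On the array, 12 more Ly49 or Klra genes of the fixed list passed the filter, and their differences from control ran from -0.48 (Klra2) to 0.27 (Ly49s7) at 600 ppm, from -0.57 (Ly49i3) to 0.13 (Ly49si1) at 1000 ppm and from -0.19 (Ly49si1) to 0.44 (Klra1) at 1500 ppm. None of the 12 passed the thresholds used for a call, a 1.5-fold change together with limma p under 0.05 before adjustment, where 0.607%, 1.63% and 1.23% of all genes passed them at 600, 1000 and 1500 ppm. In the 1000 ppm group, 10 of the 12 had a lower mean than control (median -0.31), against 8 at 600 ppm (median -0.14) and 6 at 1500 ppm (median 0.01). Over all genes 48.6% had a lower mean at 1000 ppm.

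Klrd1 (NM_012745), the CD94 partner in the receptors formed with NKG2 proteins, ran from -2.47 to -1.47 in the control rats (median -2.06) and from -2.65 to -1.58 in the 600 ppm rats (median -2.14). The 1000 ppm rats lay between -2.69 and -1.72 (median -1.94) and the 1500 ppm rats between -2.40 and -1.28 (median -1.62), so the groups overlapped over most of their range. The differences from control were -0.17, 0.00 and 0.22, each with an SE of 0.22.

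Klrk1 (NM_133512), the activating receptor NKG2D, was read by 2 probes that did not give the same picture. On the probe used for the gene the means were -1.16 ± 0.21, -1.09 ± 0.25, -1.06 ± 0.13 and -1.01 ± 0.15 from control to 1500 ppm (SD, n = 6), which are differences of 0.07, 0.10 and 0.15 with an SE of 0.11. On the dimmer probe the differences were -0.44, -0.33 and 0.12 with an SE of 0.20. The 2 probes correlated at r = 0.49 over the 24 rats once the group means were removed, against r = 0.89 for the 2 probes of Gzmb. The direction of the Klrk1 difference at 600 and 1000 ppm thus depends on the probe, and the mean of both probes gave -0.18 and -0.12.

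Ncr1 (NM_057199), whose product NKp46 is an activating receptor of NK cells, was at -4.68 ± 0.45 in the control group and at -5.06 ± 0.34, -4.97 ± 0.10 and -4.77 ± 0.28 in the 600, 1000 and 1500 ppm groups (SD, n = 6). The differences were -0.38 (95% interval -0.75 to -0.01), -0.29 (-0.66 to 0.08) and -0.09 (-0.46 to 0.28). All 6 rats at 600 ppm and all 6 at 1000 ppm were below the control mean, and 5 of 6 controls exceeded every 1000 ppm rat. The control males alone spanned -5.40 to -4.06, so no exposed group was separate from the controls. The size of the Ncr1 difference at 1000 ppm depended on the background correction and on the slide. With normexp background correction it was -0.65, and with slide as a fixed term it was 0.15. Ncr1 was not called at 1000 ppm in the main fit, where 1.63% of all genes were, and it was called in 1 of 14 alternatives.

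The genes of the killing machinery differed little from control at the 3 doses. Prf1 (NM_017330), which encodes perforin, had means of 1.24 ± 0.28, 1.21 ± 0.25, 1.25 ± 0.38 and 1.30 ± 0.37 from the control to the 1500 ppm group (SD, n = 6). Its differences of -0.03, 0.01 and 0.06 were small beside their SE of 0.18, and the 95% interval at 1500 ppm ran from -0.32 to 0.43. Gzma (NM_153468), a protease that cuts after basic residues, had means of 0.45 ± 0.38, 0.27 ± 0.29, 0.43 ± 0.45 and 0.46 ± 0.47 in the same order. Gzmk (NM_017119), a protease of similar specificity, had means of 0.00 ± 0.30, -0.05 ± 0.38, -0.07 ± 0.33 and -0.01 ± 0.33. For both genes every exposed group overlapped the controls over most of its range.

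Gzmb (NM_138517), the protease that cuts after aspartate and activates caspases in the target, was the granule gene with the lowest means under exposure relative to its controls. The control rats lay between -1.33 and -0.52 (median -1.11), the 600 ppm rats between -1.87 and -0.66 (median -1.21), the 1000 ppm rats between -2.02 and -0.99 (median -1.17) and the 1500 ppm rats between -2.07 and -0.83 (median -1.04). The low ends of the exposed groups were males, and the upper ends reached into the control range. The differences were -0.21, -0.27 and -0.25 with an SE of 0.24, and the second probe gave -0.23, -0.26 and -0.25. Nkg7 (NM_133540), a membrane protein of the granules, differed from control by -0.03, -0.01 and 0.09 with an SE of 0.20.

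**Figure D2:**
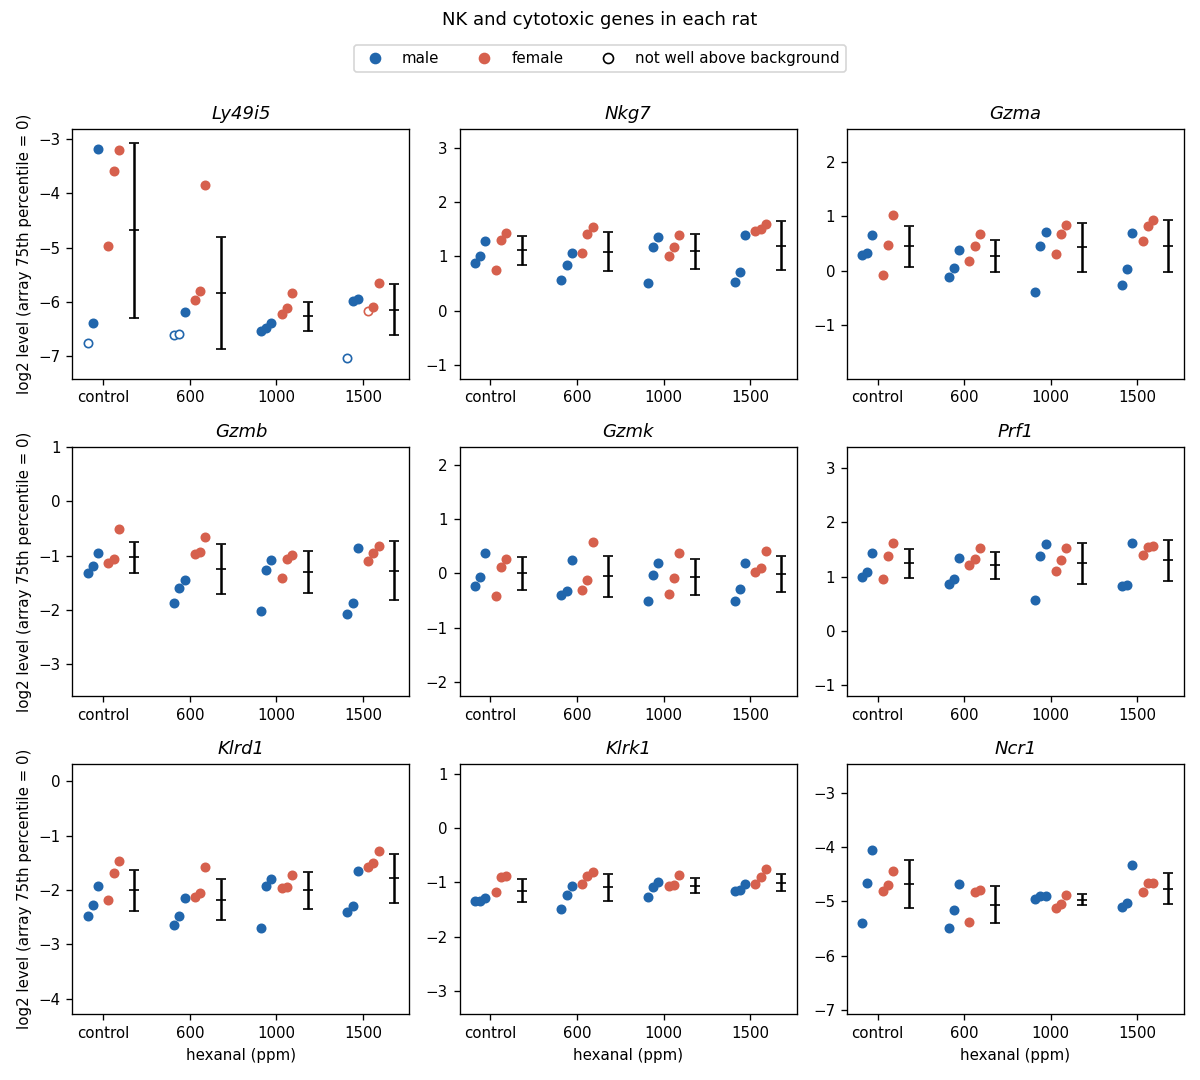
Level of each of the 9 genes (log2, array 75th percentile set to 0, each panel spanning the same 4.6 units) in the control, 600, 1000 and 1500 ppm groups, 6 rats each. Points are rats in order of level within each sex, open points are arrays where the probe was not well above background, and the bars beside them are the group mean and SD. The spread of Ly49i5 in the control group (SD 1.60) stands out from the other genes. Taken over all exposed rats, the males reach lower than the females for each of the 9 genes.

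Read as a list, 8, 7 and 4 of the 9 genes had a lower mean than control at 600, 1000 and 1500 ppm, where 50.1%, 48.6% and 46.4% of all genes had one. The median log2 differences were -0.17, -0.01 and 0.01, beside medians over all genes of 0.00, 0.01 and 0.01. Without Ly49i5 the medians were -0.11, -0.01 and 0.03. By limma, 1 of the 9 genes, Ly49i5, was called lower at each dose. Of all 21261 genes, 0.437%, 0.339% and 0.531% were called lower at 600, 1000 and 1500 ppm. By the unpaired test of the paper, at the same thresholds, Ly49i5 was called at 1000 ppm and not at 600 or 1500 ppm. That test called 87, 296 and 187 of the 21261 genes by rising dose. With slide as a fixed term or a random block Ly49i5 was not called at any dose. The fixed term compares control with the other doses through few rats, so a missing call there is not read as no difference. Since these differences helped to choose the list, nothing is read from the calls of Ly49i5. Over all genes, 0 at 600 ppm, 4 at 1000 ppm (0.0188%) and 1 at 1500 ppm (0.0047%) had a Benjamini-Hochberg adjusted limma p-value under 0.05, and none of the 9 was among them. Without the arrays of rats 7, 36 and 38, chosen after the data were seen for their few probes above background or low signal, Ly49i5 differed from control by -1.0 at 600 ppm and by -1.47 at 1500 ppm (no control or 1000 ppm rat was among them).

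**Figure D3:**
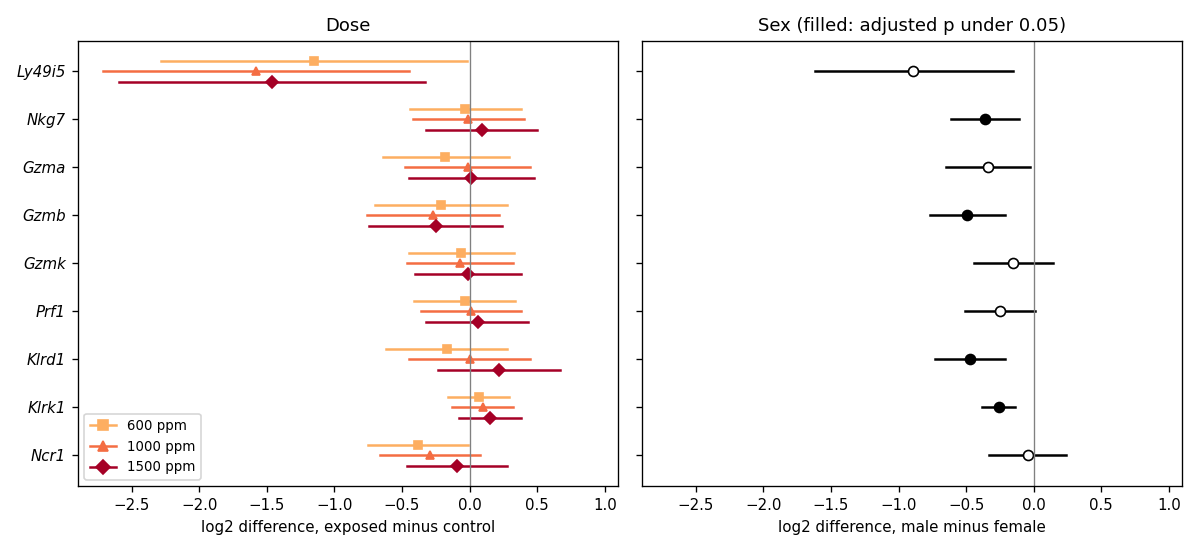
Left, log2 difference from control of each gene at 600, 1000 and 1500 ppm with its 95% interval. Right, log2 difference between males and females over the 4 groups with its 95% interval, filled where the adjusted limma p-value was under 0.05. The dose differences of 8 genes lie between -0.38 and 0.22 and those of Ly49i5 between -1.58 and -1.15, while all 9 sex differences lie below 0.

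Rat by rat, the granule genes and Klrd1 rose and fell together. With the group means removed, the 15 pairs among Nkg7, Gzma, Gzmb, Gzmk, Prf1 and Klrd1 had Pearson correlations from 0.72 to 0.93 (median 0.91) over 24 rats, and from 0.75 to 0.94 with the mean of each dose and sex removed. Ncr1 correlated with those 6 genes at 0.41 to 0.61 and Klrk1 at 0.10 to 0.62. Removing the sex means lowered the Klrk1 correlations to between -0.13 and 0.30. Ly49i5 stood apart, with correlations of 0.06 to 0.37 with the 6 genes, and of -0.02 to 0.21 with the sex means removed. These correlations are a description over rats that share slides and array scaling, and they were not tested.

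**Figure D4:**
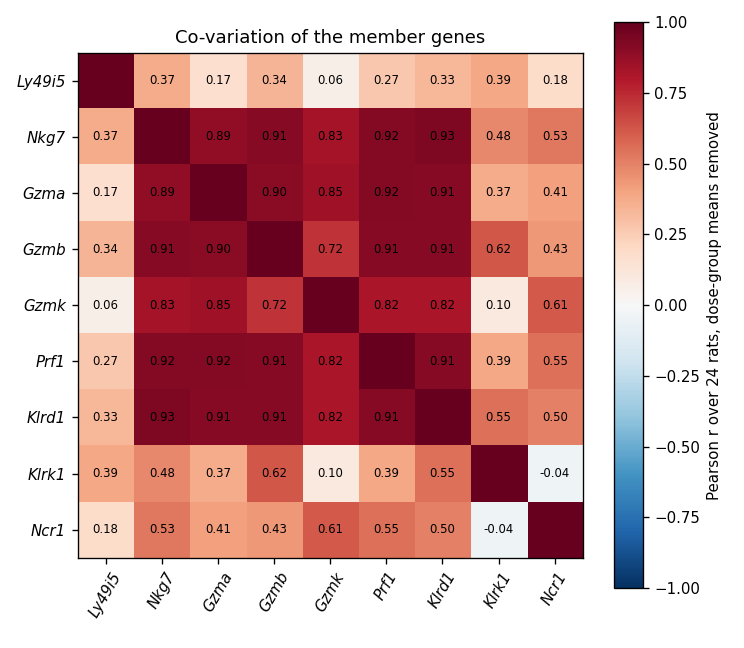
Pearson correlation between the levels of each pair of the 9 genes over 24 rats, with the mean of each dose group removed. Nkg7, Gzma, Gzmb, Gzmk, Prf1 and Klrd1 form a block with values of 0.72 to 0.93, while the row of Ly49i5 lies between 0.06 and 0.39.

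Single rats were low or high for most of these genes. Among the 8 genes other than Ly49i5, the male rat 12 was the lowest of its 1000 ppm group for 7, and the male rat 7 was the lowest of its 600 ppm group for 6. The female rats 27, 22 and 33 were the highest of the 600 ppm, control and 1000 ppm groups for 6, 5 and 5 genes. In the control group the female rat 23 was the lowest for 4 genes, and at 1500 ppm the male rat 16 was the lowest for 5 and the female rat 38 the highest for 4. The genes most like the mean of the 8, of all genes with a symbol, were Gzmm (r = 0.96), Sh2d1a (0.94), Faslg (0.93), Klrb1a (0.93) and Txk (0.93). Gzmm is a further granzyme, Sh2d1a the adaptor SAP of NK and T cells, Faslg a death ligand, Klrb1a an NK receptor and Txk a kinase of T and NK cells. The genes most like Ly49i5 were Defb52 (r = 0.74), Macroh2a2 (0.72), Mrpl4 (0.72), Rin1 (0.71) and Arhgap20 (0.70), and the 12 other Ly49 and Klra genes correlated with it between -0.42 and 0.34 (median 0.00). In these correlations only dose-group means were removed, so differences between the sexes were left in. The genes most like Ly49i5 are the highest of 12500 genes with a symbol. Such a search over 24 rats can give high values for unrelated genes.

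Of the 9 genes, Klrk1, Klrd1, Gzmb and Nkg7 were lower in males than in females. The mean of the 4 male groups was below that of the 4 female groups for all 9 genes, where 54.8% of all genes were lower in males. This count does not stand for 9 separate results. With dose and sex means removed, Nkg7, Gzma, Gzmb, Gzmk, Prf1 and Klrd1 still correlated at 0.75 to 0.94. For 4 of the 9 the adjusted limma p-value was under 0.05, beside 16.2% of all genes that were lower in males at that threshold (26.3% in either direction). Klrk1 was at -1.21 ± 0.15 in the 12 males and -0.95 ± 0.12 in the 12 females (SD), a difference of -0.26 (SE 0.06, limma, adjusted p = 0.00318). Klrd1 differed by -0.47 (SE 0.12, limma, adjusted p = 0.0103), Gzmb by -0.49 (SE 0.13, limma, adjusted p = 0.013) and Nkg7 by -0.36 (SE 0.12, limma, adjusted p = 0.0335). For these 4 genes the male mean was the lower one in 4 of 4 dose groups, while the ranges of the sexes overlapped.

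The sex differences of the other 5 genes did not pass the adjusted threshold. Ly49i5 differed by -0.89 (95% interval -1.62 to -0.15, limma, adjusted p = 0.0693), Gzma by -0.34 (-0.65 to -0.03, limma, adjusted p = 0.0992), Prf1 by -0.25 (-0.51 to 0.01), Gzmk by -0.15 (-0.44 to 0.14) and Ncr1 by -0.04 (-0.33 to 0.24). Both Klrk1 probes were lower in males (-0.26 and -0.46), and the second Gzmb probe differed by -0.26 (SE 0.15). Since each slide held 1 sex, the difference between the sexes and that between slides cannot be told apart. With slide as a random block, Klrk1 (limma, adjusted p = 0.0166) and Klrd1 (limma, adjusted p = 0.042) remained under the threshold and Gzmb (limma, adjusted p = 0.0514) and Nkg7 (limma, adjusted p = 0.098) did not. The differences also moved with the scaling of the arrays: in the deposited values without scaling, where the median of all genes was 0.14 higher in males, the 4 differences shrank to between -0.33 and -0.09 and none had an adjusted p under 0.05, while Gzmk and Ncr1 turned to 0.01 and 0.12.

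Whether hexanal acted differently in the sexes was tested as the difference between the male and the female change at 1500 ppm. In each sex the 1500 ppm and the control rats lay on different slides, and no slide held both sexes. This difference therefore cannot be told apart from differences between slides. The count of all genes given next fell to 313 with slide as a random block and to 162 with slide as a fixed term. Of all genes, 1056 (4.97%) had an adjusted limma p-value under 0.05 for this difference, and none of the 9 did (0 of 9 at a limma p under 0.05 before adjustment, beside 20.2% of all genes; the methods' t-test was not run for this difference). The smallest adjusted limma p among the 9 was 0.413, for Nkg7, whose change was -0.17 in males and 0.35 in females, a difference of -0.52 (95% interval -1.23 to 0.19). Ly49i5 at 1000 ppm differed from control by -2.13 in females and -1.03 in males, a difference between the sexes with a 95% interval of -0.98 to 3.19. Both intervals hold differences in either direction.

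Around the 9 genes, 81 further genes of NK biology were read from lists of receptors, adaptors and signalling proteins, granule and effector genes, cytokine and homing genes, and receptor ligands. None of the 81 was called by limma or by the methods' t-test at any dose, where 0.607%, 1.63% and 1.23% of all genes were called by limma at 600, 1000 and 1500 ppm. With no threshold on the fold, 3, 6 and 6 of them had a limma p before adjustment under 0.05. The share of all genes at that threshold is not given here, so nothing is read from these counts. Their median differences were -0.06, -0.03 and -0.02, and 49, 47 and 46 of the 81 had a lower mean than control.

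Of 11 transcription factor genes of NK cells, 1 was called at 1000 ppm and 2 at 1500 ppm, where 1.63% and 1.23% of all genes were called. Klf2, a factor that governs the exit of lymphocytes from tissues and that endothelial cells also express, was lower by -0.78 on the log2 scale at 1000 ppm and by -1.04 at 1500 ppm (SE 0.23). Nfil3, needed for NK cell development and also part of the circadian clock, was lower by -0.79 at 1500 ppm (SE 0.31). Neither had an adjusted limma p under 0.05 (0.178 for Klf2 and 0.634 for Nfil3 at 1500 ppm). Tbx21, which drives the maturation of NK cells, differed by 0.05, -0.12 and -0.13 at the 3 doses (SE 0.19) and was not called. The male and female changes at 1500 ppm differed at an adjusted limma p under 0.05 for 2 of the 11 (beside 4.97% of all genes), Gata3 and Prdm1, and for neither Klf2 nor Nfil3. As above, this difference cannot be told apart from differences between slides.

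Related genes also differed between the sexes. Of 25 further NK receptor genes, 22 had a lower mean in males and 6 passed the adjusted threshold, all lower in males (beside 16.2% of all genes), among them Cd226 (-0.64, limma, adjusted p = 0.0113) and Ly49s7 (-0.74, limma, adjusted p = 0.0186). Of 17 granule and effector genes 6 were lower and 1 was higher in males, with Faslg at -0.63 (limma, adjusted p = 0.00198) and Gzmm at -0.45 (limma, adjusted p = 0.0373). T cell markers moved with them: 7 of 8 were lower in males, with Cd3e at -0.72 (limma, adjusted p = 5.28e-05) and Cd8a at -0.65 (limma, adjusted p = 0.00275), and 3 of 6 B cell markers were lower. Other NK lists went both ways, with 6 of 13 adaptor and signalling genes lower and 4 higher in males, 4 of 15 cytokine and homing genes lower and 1 higher, and 3 of 11 transcription factor genes lower and 1 higher (Nfil3 at 0.75; limma, adjusted p = 0.000519). In the other direction, 6 of 11 macrophage and monocyte markers and 3 of 6 erythroid markers were higher in males, beside 10.1% of all genes. With slide as a random block, 3157 of all 21261 genes passed in either direction. The counts lower in males were then 1 of 25 NK receptor genes, 3 of 17 granule and effector genes, 6 of 8 T cell markers and 2 of 6 B cell markers. Of the 13 adaptor and signalling genes 5 were lower and 3 higher. In that fit 5 of 11 macrophage and monocyte markers and 2 of 6 erythroid markers were higher in males. The part of T cells in the sex difference of the 9 genes was not tested.

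Markers of other cells were set beside the 9 genes in each group. No T cell, B cell, macrophage or mast cell marker was called at any dose, where 0.607%, 1.63% and 1.23% of all genes were called by rising dose. None of these markers had a limma p before adjustment under 0.05, a threshold for which no share of all genes is given here. At 600 ppm, where 8 of the 9 genes had a lower mean than control, so did all 8 T cell markers (differences of -0.50 to -0.13, median -0.25) and all 6 B cell markers (-0.50 to -0.01, median -0.36). At 1000 and 1500 ppm 4 and 1 of the 8 T cell markers and 3 and 4 of the 6 B cell markers had a lower mean. The summed linear level of the 8 T cell markers was 2.50 to 5.83 times the 75th percentile in the control rats, 2.46 to 3.94 times in the 600 ppm rats, 2.44 to 5.19 times in the 1000 ppm rats and 2.82 to 5.95 times in the 1500 ppm rats. Of 6 neutrophil markers, S100a8 was called higher by limma at 1000 ppm (0.71), where 1.29% of all genes were called higher. Of 6 erythroid markers, Alas2 was called lower by limma at 1500 ppm (-0.81), where 0.531% of all genes were called lower. The unpaired test of the paper, at the same thresholds, called no neutrophil or erythroid marker at any dose. It called 87, 296 and 187 of all 21261 genes by rising dose, in either direction. Of 10 heart muscle markers, limma called 5 higher at 1000 ppm, beside 1.29% of all genes. The unpaired test of the paper called 9 of them at that dose, beside its 296 of all genes. The summed level of the 10 markers was 3.73 to 38.3 in the control rats and 9.09 to 134 in the 1000 ppm rats. Over the 24 rats, with group means removed, the heart muscle list correlated with the mean of the 8 genes at r = 0.09 and with Ly49i5 at r = -0.06. In the same order, the T cell list stood at 0.61 and 0.44 and the B cell list at 0.66 and 0.51. The erythroid list stood at -0.54 and -0.39, macrophages and monocytes at -0.52 and -0.32, and lung epithelium and endothelium at -0.44 and -0.30. The neutrophil list stood at -0.05 and -0.35, and the mast cell list at -0.08 and -0.18. Of the lists of NK genes, cytokine and homing genes stood at 0.77 and 0.58, and the others at 0.01 to 0.89 and 0.09 to 0.43. Only dose-group means were removed here, so differences between the sexes, which are also differences between slides, remain in these correlations. The part of the other cell types in the values of the 9 genes was not tested.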

How the data were processed

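The deposited intensities are, per the file headers, Agilent Feature Extraction 11.5.1.1 processed signals (one colour), from which the software had taken background and spatial trend, with no scaling from array to array. In the deposited series table the intensity was the same within 0.1% for 99.69% or more of the probes of every array. The paper's methods give 4 weeks of exposure and doses in ppm, the treatment protocol in the labels 5 weeks and mg per cubic meter, and the group labels ppm. The normalization of the mRNA values is not given in the sources used here.

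Control spots were left out, and the 42877 other spots were averaged into 30367 probes. Spots marked as outliers were left out of each mean, except in 650 values of a probe on an array where every spot was marked. Accessions matched 18355 probes (60.4%) to 15443 symbols in the RefSeq table of GRCr8. The log2 processed signal minus the log2 of the 75th percentile of its array (1700.94 to 3129.92) was used. Probes well above background on at least 5 of 6 arrays of a group were kept, and 70.71% to 81.85% of probes were well above background per array. No probe was saturated. The number of arrays limits the precision.

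Each dose was compared with control by limma 3.58.1 (R 4.3.3, data.table package, version 1.17.8; lmFit and eBayes) on 24 arrays in 4 groups. A call was a 1.5-fold change at an unadjusted p under 0.05, the study's thresholds. Sex and its interaction with dose were fitted on 8 groups, with Benjamini-Hochberg adjustment over all genes. The members, lists and tests were chosen with earlier results of these data known. The genes named are all members, called genes of the other lists (up to 3 per list and dose), the 5 genes most like Ly49i5 and most like the other members, and markers of other cells; list genes named for a sex difference, the ends of the Ly49 range and Tbx21 were picked after their values were seen. Of 7 sex-linked genes looked for, 0 were matched on the array, which leaves the labelled sexes unchecked. Alternatives are listed in the closing section; normexp used the median spot signal. The DNA methylation arrays of the paper are not analysed here.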

Additional observations from a re-analysis of the deposited data

Results flagged for a closer look

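In 36 groups of 6 rats (9 genes in 4 groups), 3 had a highest or lowest value whose gap to the next one was a large share of the whole range by Dixon's test, which flags about 1 in 20 groups by chance. Ly49i5 in rat 26, a female of the 600 ppm group, was at -3.85 with the next value at -5.80, a gap of 0.706 of the range. Ly49i5 in rat 18, a male of the 1500 ppm group, was at -7.04 with the next at -6.16, a gap of 0.633 of the range, and its probe was not well above background on that array. Klrd1 in rat 12, a male of the 1000 ppm group, was at -2.69 with the next at -1.96, a gap of 0.747 of the range, and the same rat was the lowest of its group for 7 of the 8 genes other than Ly49i5.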

How the results depend on the processing

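No paired analysis was possible because the rat numbers of the groups do not overlap. The median difference of the 9 genes ran from -0.20 to -0.07 at 600 ppm, from -0.11 to 0.09 at 1000 ppm, and from -0.14 to 0.04 at the highest dose over the alternatives. Leaving out each rat in turn, it ran from -0.26 to -0.06, -0.12 to 0.11 and -0.09 to 0.15. Without 1 rat at a time the Ly49i5 difference ran from -1.56 to -0.85, -1.99 to -1.28 and -1.87 to -1.16 by rising dose, lowest without control rat 2 and nearest to 0 without control rat 1, and it was called at 600 ppm in 5 of 24 such fits. With normexp it was -0.60, -1.09 and -0.64.

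The counts of called genes depended on the processing. In place of 129, 347 and 262 genes at 600, 1000 and 1500 ppm, no filter on dim probes gave 583 genes, 558 genes and 478 genes, and a filter on all 24 arrays, which drops Ly49i5, gave 50, 226 and 153. Normexp gave 41 genes at 600 ppm with 96 at 1500 ppm, slide as a fixed term 225 and 398 at these doses, array weights 330 at 600 ppm, slide as a random block 140 at 1500 ppm and the unscaled deposited values 569 at 1000 ppm. An adjusted p under 0.05 with the 1.5-fold threshold left 0, 3 and 1. The share called higher was 27.9%, 79.3% and 56.9%, against 54.3%, 94.7% and 38.9% in the unscaled table, where the median of all genes lay at 0.07, 0.11 and -0.05, and 41.9% at 600 ppm after quantile normalization. Leaving out each rat gave 128 to 195, 210 to 501 and 211 to 341 (195 without 600 ppm rat 26, 210 without 1000 ppm rat 33).

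In place of 1056 genes whose 1500 ppm effect differed by sex, normexp gave 333, a random slide block 313, a fixed slide term 162, array weights 2691 and leaving out rats 7, 36 and 38 gave 399; leaving out each rat gave 623 (without control rat 23) to 1223. For the sex difference (5600 genes), normexp gave 2256, a random slide block 3157 and leaving out those 3 rats 3706; leaving out each rat gave 4594 to 6172. A fixed slide term could not be fitted for sex because each slide holds 1 sex. Leaving out rats 7, 36 and 38 and the arrays where Ly49i5 was near background were alternatives chosen after seeing the data. Of the 10 alternatives, Klrk1 kept an adjusted p under 0.05 in 9, Klrd1 in 7, Gzmb in 6 and Nkg7 in 5, and leaving out each rat Nkg7 kept it in 12 of 24 fits and the other 3 genes in 24. Ncr1 turned to 0.10 after quantile normalization, 0.01 after scaling to the median, 0.12 in the unscaled table, 0.05 without control rat 3 and 0.01 without 600 ppm rat 8, and Gzmk to 0.01 in the unscaled table. The cause was not tested. Signals near background limit Ly49i5.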
